A study of Homo sapiens with 4 samples.

Results

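The nuclear genes for subunits of the oxidative phosphorylation system were compared between edited and wild-type MCF12A cells. MCF12A is a human mammary epithelial line that is known as non-tumorigenic, although the source label calls it a breast cancer line. In the edited cells p2, a distal promoter of *C1orf132*, had been deleted with CRISPR/Cas9. *C1orf132* is the host gene of miR-29b2 and miR-29c, and the genotype label of these cells reads C1orf132 KO. The wild-type cells are labelled WT and were not edited. Both groups were grown in DMEM/F12 with horse serum, EGF, hydrocortisone, cholera toxin and insulin, and poly(A)-selected RNA of 2 libraries per group was sequenced. In the study's methods, single cells were sorted and grown into colonies, so the edited libraries may come from 1 clone, and an effect of the deletion and a difference between clones cannot be told apart. No value of *C1orf132* was analysed here, and the groups rest on their labels alone.

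Members were chosen by symbol. They were the genes whose names begin with NDUFA, NDUFB, NDUFC, NDUFS or NDUFV and a number, *SDHA* to *SDHD*, and names that begin with UQCR, COX4 to COX8 or ATP5. This gave 79 of 16811 genes, after 1 pseudogene symbol (*NDUFV2P1*) had been left out. Of these, 76 had a mean value of at least 10 over the 4 libraries and were tested among 9590 genes. The tested members comprised 35 subunits of complex I, 4 of complex II, 8 of complex III, 11 of complex IV and 15 of complex V, with 3 genes that are not core or accessory subunits of a complex (*ATP5S*, *ATP5SL* and *COX7A2L*). The remaining 3 members, *COX6B2* and the readthrough genes *NDUFC2-KCTD14* and *ATP5J2-PTCD1*, had means under 10 and are described apart. Symbols are those of the deposited table. Current names of the ATP5 genes differ, so that *ATP5G1* is now ATP5MC1, *ATP5B* is ATP5F1B and *ATP5F1* is ATP5PB, and *NDUFA4*, which RefSeq lists as COXFA4, was counted with complex IV. *COX4I2*, *COX6A2*, *COX7A1*, *COX8C*, *NDUFA4L2* and *NDUFA6* were not analysed here.

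Oxidative phosphorylation takes place in the inner mitochondrial membrane. Complexes I and II take electrons from NADH and succinate, complex III passes them to cytochrome c, and complex IV hands them to oxygen, while complexes I, III and IV pump protons across the membrane. Complex V, the ATP synthase, lets the protons flow back through a rotating ring of c subunits and makes ATP. Most subunits are encoded in the nucleus, translated in the cytosol and imported, and a small hydrophobic set is encoded in mitochondrial DNA (mtDNA), so the complexes are built from products of both genomes.

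Values are normalized expression values that were taken as scaled for transcript length, which the sources used here do not state. Their totals per library ranged from 1444644 (wild-type replicate 2) to 1655437 (edited replicate 1). The read depth behind a value is not given in the sources used here. Log2 fold changes are edited minus wild-type on log2(value + 1), with a limma test over all tested genes and Benjamini-Hochberg adjustment, and a gene was called at an adjusted p under 0.05. Nothing in the labels says that the replicates came from separate cultures, and the paper calls them biological replicates. If they are technical, the p-values measure technical spread only. For a single gene, an exact permutation test of 2 against 2 libraries cannot pass 0.05, so none was used.

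Nearly all nuclear subunit genes had higher values in edited than in wild-type cells, by 1.51 times for their sum on the linear scale, but no tested member passed the test. The summed value of the 73 tested subunits was 41814 and 33055 in edited replicates 1 and 2, against 26509 and 22952 in wild-type replicates 1 and 2, which gives that ratio of the means. The groups did not overlap in this sum, and edited replicate 1 was the highest library. As a share of the library total, the tested and low members together took 2.55% and 2.02% in the edited libraries and 1.67% and 1.6% in the wild-type libraries. In bulk RNA, a change in the number of cells of a kind and a change of RNA per cell cannot be told apart.

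The 76 tested members had a median log2 fold change of 0.57, against 0.09 over all tested genes. It was positive for 72 members, against a background of 56.7% of all tested genes. In 67 members (88.2%) both edited libraries lay above both wild-type libraries, against 38.3% of all tested genes. In 1 member, *ATP5S*, both edited libraries lay below both wild-type libraries, against 26.9% of all tested genes, and in 8 members the groups overlapped. By limma, 0 of 76 members were called in either direction, where 7.09% of all tested genes were called and 2.89% were called higher. The lowest adjusted p of a member was 0.0617. At an unadjusted p under 0.05 there were 36 members, all higher in edited cells, against 18.7% of all tested genes in that direction. At the stricter adjusted p of 0.001, which the study used, the counts were 0 members and 1 of all 9590 genes. The paper reports far more genes at that threshold. Its own analysis was not repeated here, so its count and these cannot be compared.

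The 2 edited libraries differed from each other in these genes. Taken against the wild-type mean, the tested members had a median deviation of 0.75 in the first edited library and 0.40 in the second, on the log2 scale. In the wild-type replicates it was 0.10 above and below. These wild-type values mirror each other because their own mean is the reference, so each is only a part of the difference between those libraries. Over all tested genes the same medians were 0.09 in both edited libraries. Without edited replicate 2, 10 members were called higher, with a member median of 0.75, and 7.11% of all tested genes were then called higher. Without edited replicate 1 none was, with a median of 0.40 and 72 members still positive.

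**Figure D1:**
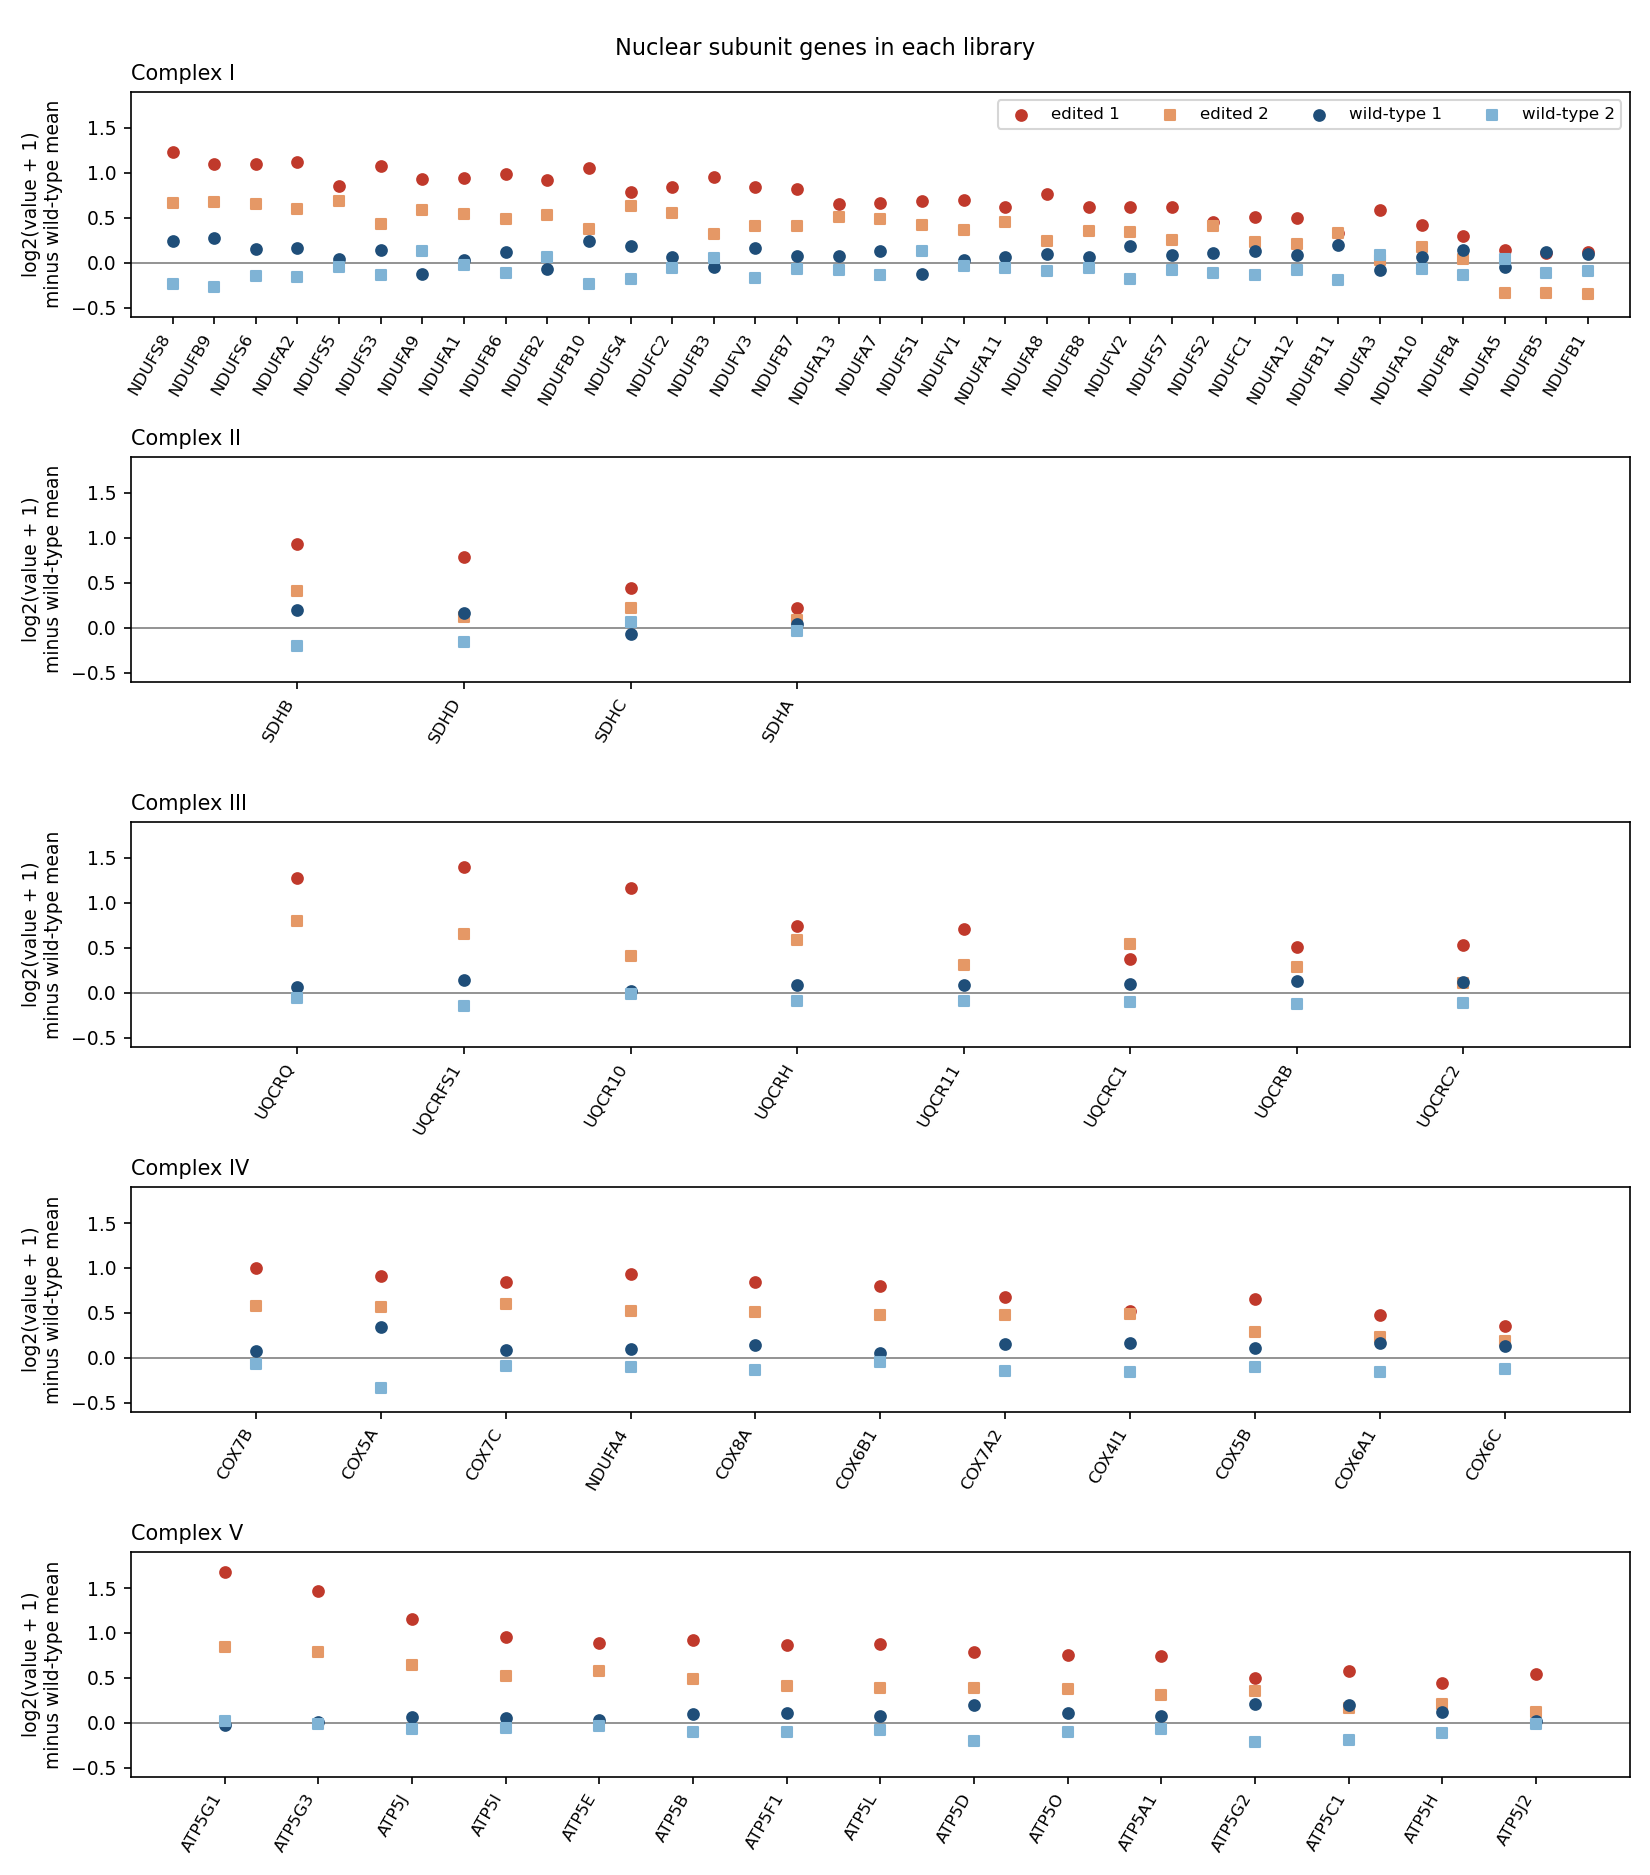
Each tested subunit in each library, as log2(value + 1) minus the mean of the wild-type libraries (vertical axis), by complex and ordered by fold change, with red and orange points for edited replicates 1 and 2 and dark and light blue points for wild-type replicates 1 and 2. In 65 of 73 subunits both edited points lie above both wild-type points, and edited replicate 1 mostly lies above edited replicate 2.

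Complex I, the NADH dehydrogenase, had a median log2 fold change of 0.56 over 35 subunits, with 32 positive, 30 groups not overlapping and 0 called. For this and each further complex the background over all tested genes was 56.7% positive, with 38.3% not overlapping and higher. Its 7 nuclear core subunits, which carry the flavin and iron-sulfur clusters, had a median of 0.53 (range 0.42 to 0.95), and none of them overlapped between groups. The 28 accessory subunits, which surround the core, had a median of 0.60 (range -0.12 to 0.88), with 5 overlapping. The 3 negative values of complex I were all in accessory subunits.

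*NDUFS8*, a core subunit that binds iron-sulfur clusters, had the highest fold change of complex I. Its values were 376 and 253 in edited cells and 188 and 135 in wild-type cells, a log2 fold change of 0.95 ± 0.29 (SE, adjusted p = 0.0945). *NDUFB9*, an accessory subunit of the membrane arm, was next, with 653 and 488 against 370 and 252 (log2 fold change 0.88 ± 0.28, adjusted p = 0.103). In both genes the lower edited library stood above the higher wild-type library. *NDUFS5*, an accessory subunit, had the lowest adjusted p of the complex, 0.0748, with 991 and 881 against 563 and 530 and a fold change of 0.77 ± 0.20 on the log2 scale. This gene was picked for its p after the values were seen, and its 2 edited values lay closer together than those of *NDUFS8*.

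Among the other core subunits, *NDUFS3* read 323 and 205 against 168 and 138, with a log2 fold change of 0.76. *NDUFV1*, which binds the flavin and NADH, read 734 and 585 against 465 and 443 (0.53). *NDUFS1*, the largest subunit, read 78.6 and 65.3 against 44.4 and 53 (0.55). All core subunits had their lowest edited value above their highest wild-type value, and the adjusted p of the 7 ranged from 0.0945 to 0.226.

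By name series, the 8 NDUFS genes had a median of 0.73, the 11 NDUFB genes 0.61, the 11 NDUFA genes other than *NDUFA4* 0.53, the 3 NDUFV genes 0.53 and the 2 NDUFC genes 0.53. Negative fold changes were found in *NDUFB1* (-0.12), *NDUFB5* (-0.12) and *NDUFA5* (-0.10), all accessory subunits. *NDUFB1* read 236 and 171 against 233 and 204, *NDUFB5* read 271 and 199 against 273 and 232, and *NDUFA5* read 141 and 101 against 124 and 132. In each of the 3 genes edited replicate 2 was the lowest library and the groups overlapped, so no direction was resolved. *NDUFA3* and *NDUFB4*, also accessory, overlapped as well, with log2 fold changes of 0.31 and 0.17.

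Complex II, succinate dehydrogenase, had the lowest median of the 5 complexes, 0.39 over 4 subunits, all positive, with 0 called. It is the one complex built from nuclear genes alone and is also an enzyme of the tricarboxylic acid cycle. *SDHB*, the iron-sulfur subunit, read 719 and 498 against 433 and 327 (log2 fold change 0.67 ± 0.28, adjusted p = 0.163). *SDHD*, a membrane anchor, read 371 and 233 against 240 and 191 (0.46), and its groups overlapped. *SDHC*, the other anchor, read 369 and 318 against 260 and 285 (0.33). *SDHA*, the flavoprotein, read 398 and 361 against 350 and 332, a log2 fold change of 0.15 ± 0.20 (adjusted p = 0.623). The *SDHA* values in the 4 libraries lay close together, and its sign turned negative under quantile normalization (-0.08), cyclic loess normalization (-0.17) and centring by chromosome (-0.08).

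Complex III, the cytochrome bc1 complex, had a median of 0.59 over 8 subunits, all positive, with 7 groups not overlapping. *UQCRQ*, a small accessory subunit beside cytochrome b, had the lowest adjusted p of all members. Its values were 866 and 620 in edited cells and 371 and 341 in wild-type cells (743 ± 174 against 356 ± 21.7, SD, n = 2), a log2 fold change of 1.04 ± 0.24 with an adjusted p of 0.0617. *UQCRFS1*, the Rieske iron-sulfur protein, had the lowest values of the complex and nearly the same fold change. It read 50.3 and 29.7 against 20.5 and 16.6, a log2 fold change of 1.03 ± 0.29 (adjusted p = 0.0819). Both genes were higher in both edited libraries, and edited replicate 1 was well above edited replicate 2.

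The large core proteins of complex III had smaller fold changes. *UQCRC2* read 690 and 514 against 517 and 439 (log2 fold change 0.32, adjusted p = 0.397), and it was the only member of the complex whose groups overlapped. *UQCRC1* read 831 and 933 against 688 and 599 (0.46), with edited replicate 2 the higher edited library. *UQCRB* read 1027 and 879 against 792 and 660 (0.39). *UQCRH*, the hinge protein that contacts cytochrome c1, was among the 3 members with the highest mean value, with 1392 and 1243 against 882 and 780 (0.67 ± 0.21, adjusted p = 0.0983).

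Complex IV, cytochrome c oxidase, had a median of 0.64 over 11 nuclear subunits. All 11 were positive and in all 11 both edited libraries lay above both wild-type libraries, with 0 called. Its nuclear subunits surround a catalytic core that is encoded in mtDNA. *COX7B* had the highest fold change, with 867 and 642 against 455 and 410 (0.79 ± 0.24, adjusted p = 0.0919), followed by *COX5A* with 983 and 773 against 663 and 413 (0.73 ± 0.30, adjusted p = 0.159). The wild-type libraries differed more from each other in *COX5A* than in *COX7B*. *COX7C* had the second highest mean value of all members, with 2482 and 2097 against 1470 and 1300 (0.72 ± 0.21, adjusted p = 0.0887). The lowest fold changes of the complex were those of *COX6C* (1034 and 915 against 883 and 737, 0.27) and *COX6A1* (541 and 457 against 435 and 349, 0.35), and that of *COX6C* turned to -0.05 once the trend with transcript length was removed.

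Several complex IV subunits exist as pairs of isoforms made in different tissues. The common isoforms were all well above the mean of 10. *COX4I1* read 1110 and 1084 against 865 and 692 (0.50), *COX7A2* read 630 and 546 against 435 and 354 (0.58), and *COX8A* read 1018 and 811 against 625 and 515 (0.68). *NDUFA4* read 940 and 709 against 529 and 460 (0.72). The pair of COX6B isoforms, which dock cytochrome c on the outer face of the enzyme, was the one pair with both members in the table, and their values lay in opposite directions. *COX6B1*, the common form, read 662 and 528 against 394 and 366 (0.64 ± 0.22, adjusted p = 0.116). *COX6B2*, known as the testis form, read 1.49 and 2.43 in edited cells and 9.12 and 8.02 in wild-type cells.

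*COX6B2* was below the mean of 10 and was tested without that filter among 16811 genes. There it was called lower by limma (log2 fold change -1.71 ± 0.26, adjusted p = 0.0384), where 3.4% of genes were called lower. The 2 groups did not overlap, and its edited mean was 0.229 times the wild-type mean. The direction held in 13 of 13 alternatives and the call in 8, and it was lost with a replicate block (highest adjusted p over the alternatives 0.225) and without any 1 of the 4 libraries.

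Complex V, the ATP synthase, had a median of 0.64 over 15 subunits, all positive, with 14 groups not overlapping and 0 called. The highest fold changes of all members were in its c ring, the rotor through which protons pass. Its subunit c is made from 3 genes, *ATP5G1*, *ATP5G2* and *ATP5G3*, which encode the same mature protein behind different import sequences. *ATP5G1* read 512 and 287 in edited cells and 157 and 162 in wild-type cells (400 ± 159 against 159 ± 3.76, SD, n = 2), a log2 fold change of 1.26 ± 0.31 (adjusted p = 0.0672). *ATP5G3* read 1233 and 770 against 449 and 441, a log2 fold change of 1.13 ± 0.28 (adjusted p = 0.0682). In both genes the wild-type libraries lay close together, and the edited libraries were 1.78 and 1.6 times apart. *ATP5G2* read 621 and 562 against 508 and 379, a log2 fold change of 0.43 ± 0.24 (adjusted p = 0.261).

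Among the c ring genes, *ATP5G3* had the highest value of the 3 in both edited libraries, while in wild-type replicate 1 *ATP5G2* (508) was above *ATP5G3* (449). The differences between these genes' fold changes were not tested. Summed over the 3 genes, the value was 2366 and 1619 against 1114 and 982, a ratio of 1.9. *ATP5G1* was called in 1 filter alternative, when only genes with a mean of at least 50 were tested (adjusted p = 0.049, where 5.44% of genes were called higher). Its adjusted p over all alternatives ranged from 0.0108 to 0.266.

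**Figure D2:**
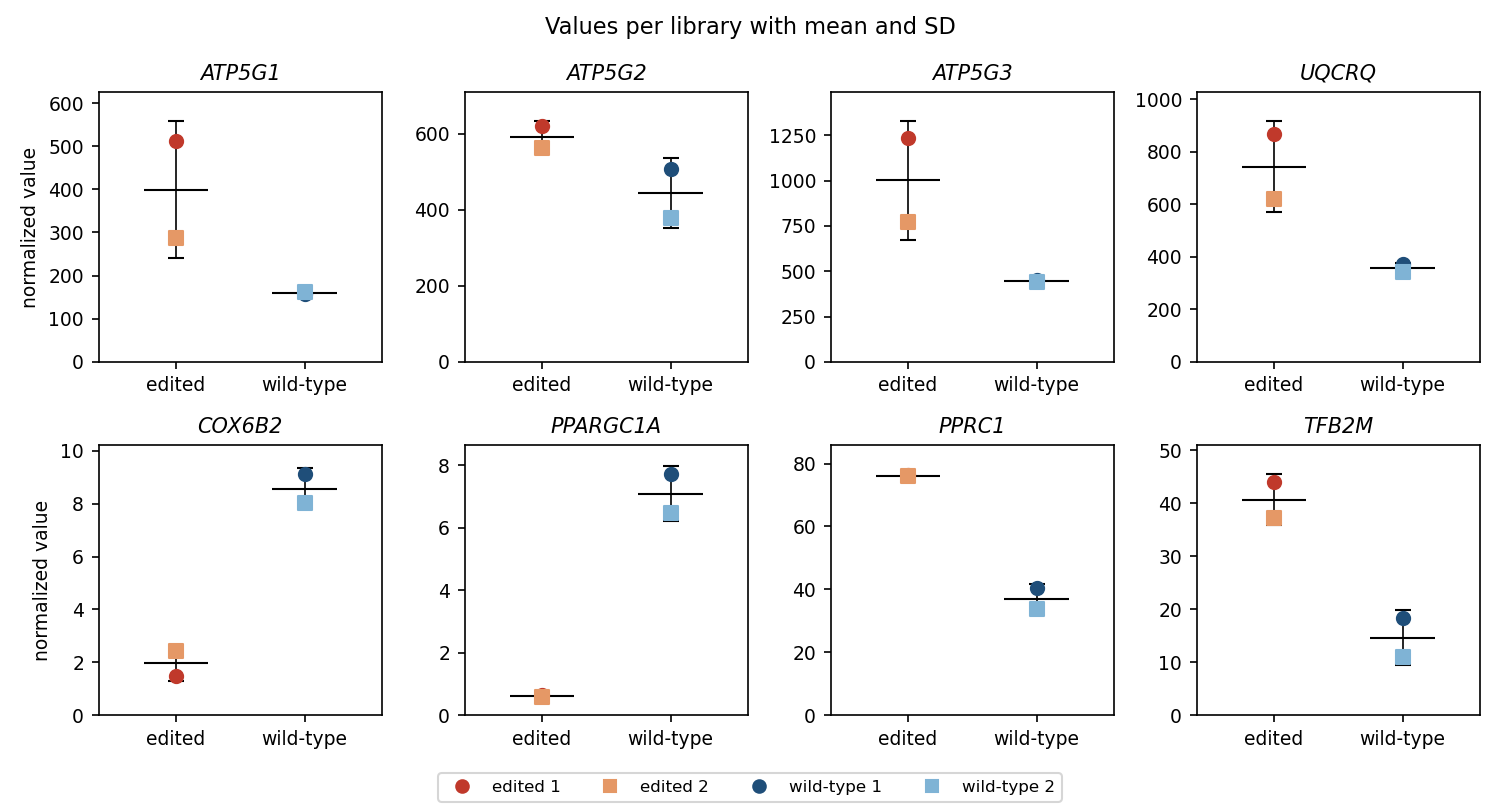
Normalized values (vertical axis, from 0) of ATP5G1, ATP5G2, ATP5G3, UQCRQ, COX6B2, PPARGC1A, PPRC1 and TFB2M in each of the 4 libraries, with the mean as a line and the SD (n = 2) as bars. Edited points lie above wild-type points in 6 of the 8 genes, and in COX6B2 and PPARGC1A they lie below.

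The F1 head, where ATP is made, had a median of 0.59 over 5 subunits. *ATP5B*, the catalytic beta subunit, had the highest mean value of all members, with 2747 and 2031 against 1553 and 1352 (log2 fold change 0.70 ± 0.24, adjusted p = 0.115). *ATP5A1*, the alpha subunit, read 1112 and 827 against 700 and 634 (0.52). *ATP5C1*, the gamma subunit of the central shaft, read 785 and 589 against 603 and 460 (0.37), and it was the one complex V gene whose groups overlapped. The peripheral stalk, which holds the head still, had a median of 0.60 over 4 subunits, from *ATP5J* (367 and 257 against 173 and 157, 0.89, adjusted p = 0.0805) to *ATP5H* (445 and 378 against 355 and 301, 0.33). The other membrane subunits *ATP5I*, *ATP5L* and *ATP5J2* had log2 fold changes of 0.74, 0.64 and 0.33. The head and the stalk thus had medians close to that of the whole complex.

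The tested members that are no subunits had log2 fold changes from -0.27 to 0.48. *COX7A2L*, which takes part in joining complexes into supercomplexes, read 214 and 176 against 164 and 118 (0.48). *ATP5SL*, now DMAC2 and a complex I assembly factor, read 72.5 and 65.8 against 61.2 and 52 (0.29). *ATP5S*, now DMAC2L, read 22.3 and 19.7 against 25.3 and 25.6 (-0.27, adjusted p = 0.326). Of the readthrough genes, *ATP5J2-PTCD1* read 10.8 and 7.18 against 8.31 and 6.76. *NDUFC2-KCTD14* is listed at 0 and 0.262 in edited cells and at 2.23 and 3.53 in wild-type cells. Without the filter it was called lower by limma (log2 fold change -1.77 ± 0.31, adjusted p = 0.0461, called in 4 of 13 alternatives), where 3.4% of genes were called lower. It shares exons with *NDUFC2*, and reads of the pair can be split between them by the counting, so this value is uncertain.

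**Figure D3:**
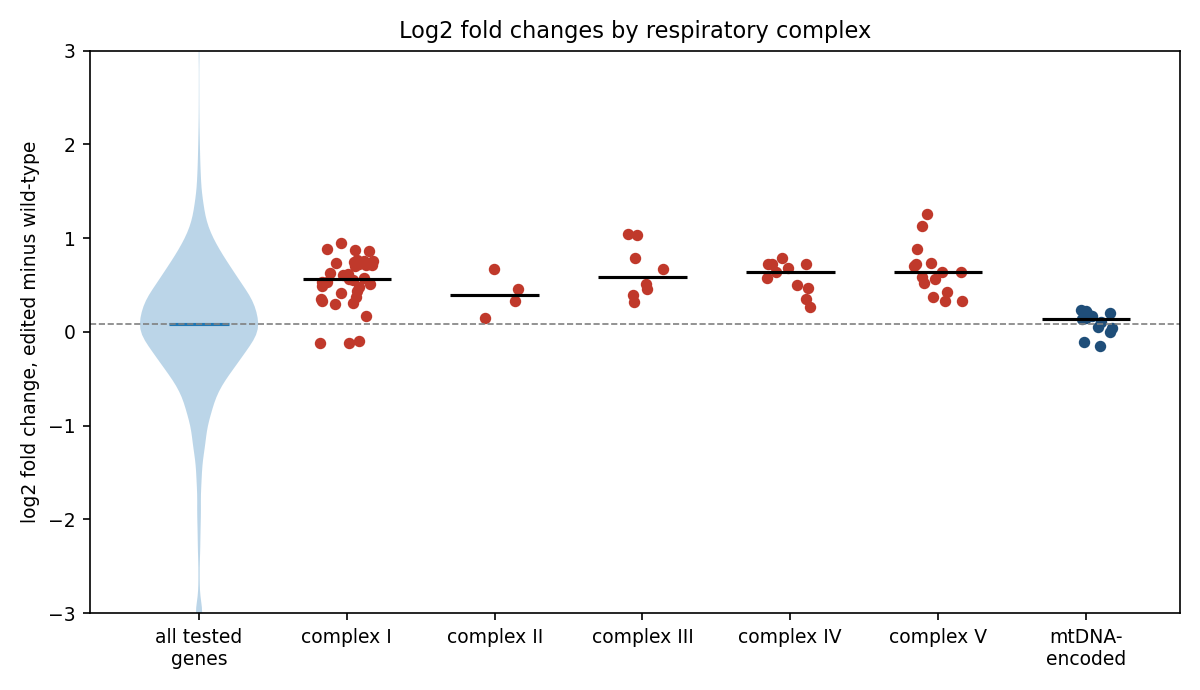
Log2 fold changes, edited minus wild-type, of all 9590 tested genes (violin, values beyond 3 drawn at 3, dashed line at their median of 0.09) and of each tested subunit of complexes I to V (red points) and each mtDNA-encoded subunit (blue points), with the median of each set as a black line. The medians of the nuclear sets lie between 0.39 and 0.64, and that of the mtDNA-encoded set is 0.14.

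The subunits encoded in mtDNA had a smaller median and mostly overlapped between groups. Of the 13, 0 were called, where 680 of all 9590 tested genes were. An unadjusted limma p under 0.05 was found in 0 of them and in 3095 of all tested genes. Their median log2 fold change was 0.14 (range -0.15 to 0.23). The groups overlapped in 12 of the 13, against 3343 of all tested genes, and *MT-ND1* (4876 and 4707 against 4230 and 4090) was the exception. *MT-CO2*, a core subunit of complex IV, read 35484 and 25929 against 24637 and 28166. *MT-ATP6*, the partner of the c ring in complex V, read 26479 and 18189 against 17525 and 20051. The mtDNA genes were high in edited replicate 1 and wild-type replicate 2, so their order did not follow the groups, and they took 11.8% and 9.27% of the total in the edited libraries and 9.13% and 12.2% in the wild-type libraries. The difference between the nuclear and mtDNA sets was not tested.

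Another 4 genes of the chain lie outside the symbol rule. *CYC1*, cytochrome c1 of complex III, read 503 and 376 against 265 and 225 (log2 fold change 0.83, adjusted p = 0.0858). *CYCS*, cytochrome c, read 684 and 304 against 254 and 249 (0.86, adjusted p = 0.198), and most of its difference came from edited replicate 1. The small ATP synthase subunits *USMG5* and *C14orf2* had log2 fold changes of 0.56 and -0.03. Chosen after the values were seen, *NDUFAB1*, the mitochondrial acyl carrier protein that sits in complex I, had 0.65, and *ATPIF1*, the inhibitor of ATP synthase, had -0.08. The excluded pseudogene *NDUFV2P1* had 0.72 beside 0.48 for its parent *NDUFV2*. Many subunit genes have processed pseudogenes whose sequence is nearly that of the parent, and reads shared with such copies cannot be placed with certainty.

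Assembly factors, which build the complexes but do not stay in them, included genes that passed the test. Of 58 listed factors that were tested, 8 (13.8%) were called higher and 0 lower, where 2.89% of all tested genes were called higher (2 of the 58, *ATP5SL* and *ATP5S*, are also members). For complex I, 4 of 18 were called higher, with a list median of 0.56. *NDUFAF4* read 120 and 67.5 against 31.1 and 16.7 (log2 fold change 1.94 ± 0.39, adjusted p = 0.0475), and *NDUFAF2* read 229 and 181 against 97.3 and 66.8 (1.32 ± 0.26, adjusted p = 0.0461). *NDUFAF1* read 40.4 and 35.2 against 18.7 and 18.6 (0.98, adjusted p = 0.0381), and *TMEM261*, now DMAC1, read 156 and 112 against 64 and 49.3 (1.22, adjusted p = 0.0491). In each of the 4 genes both edited libraries were above both wild-type libraries. The lowest of that list were *NUBPL*, which delivers iron-sulfur clusters, with 11.9 and 11.1 against 21.3 and 22.6 (-0.87, adjusted p = 0.0524), and *COA1* (-0.24). They lie on chromosomes 14 and 7, whose tested genes had medians of -0.46 and -0.18.

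For complex II, 1 of 4 factors was called, *SDHAF2*, which helps to attach the flavin to *SDHA*, with 35.7 and 32.2 against 17.4 and 12.6 (log2 fold change 1.14, adjusted p = 0.042). For complex III, 1 of 9 was called, *SMIM4*, with 121 and 65 against 25.7 and 28.3 (1.68, adjusted p = 0.0416). For complex IV, 2 of 23 were called, *SCO2*, a copper chaperone, with 62.4 and 47.3 against 26.6 and 23.1 (1.10, adjusted p = 0.042), and *HIGD2A* with 267 and 262 against 140 and 129 (0.97, adjusted p = 0.0449). For complex V, 0 of 4 were called and 1 had an unadjusted p under 0.05. Some factors of these lists were lower in both edited libraries without passing the test. *COX19*, which serves copper delivery to complex IV, read 6.89 and 7.83 against 13.5 and 14.2 (-0.83, adjusted p = 0.0829). *SURF1*, another complex IV factor, read 52.9 and 51.2 against 80 and 56.5 (-0.36, adjusted p = 0.304), and *SDHAF4* of complex II read 10.5 and 11.9 against 14.2 and 18.4 (-0.50, adjusted p = 0.197). The lowest for complex III was *UQCC2* (-0.04), with overlapping groups. The list medians for complexes II to V were 0.32, 0.56, 0.60 and 0.24. With each chromosome centred, *NDUFAF2*, *SCO2* and *HIGD2A* were no longer called. The calls of the 8 factors held in 8 to 12 of 16 or 17 alternatives each, with a highest adjusted p of 0.248. All 8 were lost without either wild-type library. Of the 8, 7 were lost with a replicate block (all but *NDUFAF4*), 7 without edited replicate 1 (all but *SMIM4*) and 7 with no filter on low values (all but *HIGD2A*).

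Regulators of mitochondrial gene expression moved in both directions. *PPARGC1A* encodes PGC-1alpha, a coactivator known to drive nuclear respiratory genes. It read 0.635 and 0.567 in edited cells and 7.72 and 6.47 in wild-type cells. Without the filter it was called lower by limma (log2 fold change -2.33 ± 0.24, adjusted p = 0.0182), where 3.4% of genes were called lower. That call held in 8 of 13 alternatives and was lost with a replicate block and without any 1 library. *PPRC1*, the related coactivator PRC, was called higher, with 76.5 and 75.9 against 40.3 and 33.6 (1.03 ± 0.18, adjusted p = 0.0382). *TFB2M*, a transcription factor of mtDNA, was called higher, with 44.1 and 37.3 against 18.3 and 11 (1.45 ± 0.27, adjusted p = 0.042). Both calls were lost with a replicate block, without edited replicate 1 and without either wild-type library. That of *TFB2M* was also lost with no filter on low values. The calls held in 13 of 17 alternatives for *PPRC1* and 11 of 16 for *TFB2M*. The other 2 parts of the mtDNA transcription machinery, *TFAM* (0.77) and *POLRMT* (0.78), had adjusted p of 0.0679 and 0.067. *NRF1* and *GABPA*, which encode DNA-binding factors of many subunit promoters, read 9.04 and 7.9 against 9.01 and 7.1, and 7.69 and 6.53 against 6.77 and 8.5. Both overlapped between groups. Of the 8 regulators above the filter, 2 were called higher and 0 lower, where 2.89% of all tested genes were called higher.

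Since most members lay in 1 direction, their promoters were searched for sites of the factors that are known for subunit genes. The search covered the 250 bases before the RefSeq start (GRCh38.p14) on both strands, for 63 tested members with an entry. The NRF1 motif CGCANGCGC was found in 20 of 63 members (31.7%), against 17.5% of tested genes and 7.99% of all promoters. The ETS motif CCGGAAG, to which GABP binds, was found in 17 (27%), against 21.3% of tested genes and 10.2% of all promoters. The Sp1 motif GGGCGG was found in 58.7% of members and 77.3% of tested genes, and the NF-Y motif CCAAT in 31.7% and 41.9%. The cyclic AMP element TGACGT was found in 19% and 13.6%, and the YY1 motif AAGATGGCG in 1.59% and 1.63%. The members with an NRF1 match had a median log2 fold change of 0.45 and those without it 0.64, and for the ETS motif the medians were 0.61 and 0.56. These differences were not tested, and a match is a string of letters and not a bound site.

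The windows below, each of 60 bases and read 5′ to 3′ on the strand of the gene, show these motifs (in capitals) in members of high and low fold change. *UQCRFS1* (1.03) lies at chr19:29213152-29213211 on the minus strand, *NDUFS6* (0.87) at chr5:1801335-1801394 on the plus strand, and *NDUFA5* (-0.10) at chr7:123557943-123558002 on the minus strand. *SDHA* (0.15), at chr5:218260-218319 on the plus strand, has 4 NRF1 matches, of which the one nearest to the start is shown.
UQCRFS1: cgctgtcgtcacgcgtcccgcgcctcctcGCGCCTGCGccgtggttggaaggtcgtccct
NDUFS6: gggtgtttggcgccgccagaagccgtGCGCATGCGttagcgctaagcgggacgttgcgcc
NDUFA5: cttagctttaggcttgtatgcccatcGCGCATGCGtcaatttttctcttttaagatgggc
SDHA: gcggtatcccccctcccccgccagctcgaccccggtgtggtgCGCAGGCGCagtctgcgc
*NDUFS6* and *NDUFA5* hold the same 9 letters, GCGCATGCG, and had log2 fold changes of 0.87 and -0.10. The first base of the motif lay 46 bases before the start in *NDUFS6* and 158 bases before it in *NDUFA5*.

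ETS motifs are shown for *UQCRQ* (1.04) at chr5:132866561-132866620 on the plus strand, for *SDHB* (0.67) at chr1:17054128-17054187 on the minus strand, for *UQCRH* (0.67) at chr1:46303625-46303684 on the plus strand, and for *ATP5H* (0.33), a member of low fold change, at chr17:75047038-75047097 on the minus strand. *ATP5J* (0.89), at chr21:25735078-25735137 on the minus strand, holds the only YY1 match among the members.
UQCRQ: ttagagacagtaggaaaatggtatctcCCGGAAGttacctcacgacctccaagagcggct
SDHB: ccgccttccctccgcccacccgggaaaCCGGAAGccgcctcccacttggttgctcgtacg
UQCRH: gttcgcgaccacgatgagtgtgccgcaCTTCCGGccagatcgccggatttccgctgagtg
ATP5H: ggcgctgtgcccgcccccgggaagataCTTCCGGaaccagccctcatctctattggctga
ATP5J: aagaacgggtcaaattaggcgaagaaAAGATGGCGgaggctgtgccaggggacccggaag
In *UQCRH* and *ATP5H* the motif is on the opposite strand to that in *UQCRQ* and *SDHB*. Capitals mark the YY1 motif alone in the *ATP5J* window, which also ends in an ETS match in lower case. The motifs were chosen after matches in these genes had been looked at.

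The members' position in the genome was set beside their change, since the median fold change of all tested genes varied by chromosome. This variation was not tested. Over the tested genes of chromosome 14 the median was -0.46, and the members there, *NDUFB1* and *ATP5S*, were 2 of the 4 with a negative value. Chromosomes 7 and 9 each had -0.18, and chromosome 5, with *SDHA*, *NDUFA2*, *NDUFS4*, *NDUFS6*, *UQCRQ* and *COX7C*, had 0.36, the highest. Against its own chromosome's median, *UQCRQ* had 0.68, *NDUFB2* on chromosome 7 had 0.91, *NDUFB1* had 0.34 and *SDHA* had -0.20. With each chromosome centred in each library, 74 of 76 members were positive with a median of 0.46, 67 did not overlap between groups (37% of all genes then tested), and 0 were called. *NDUFB1* and *ATP5S* then turned positive (0.42 and 0.27).

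**Figure D4:**
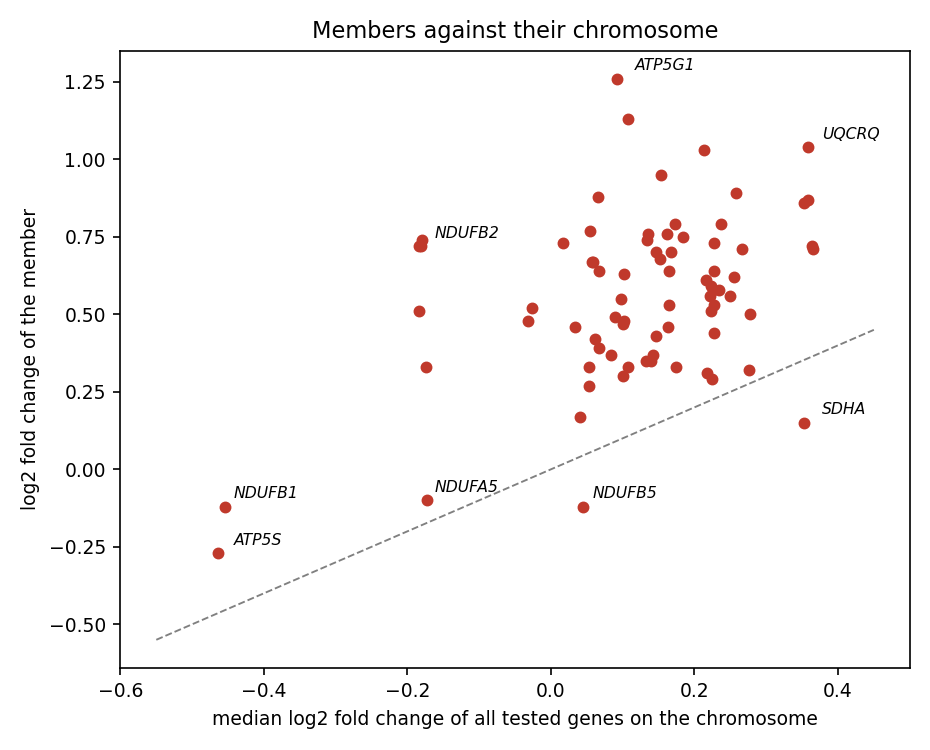
Log2 fold change of each tested member (vertical axis) against the median over all tested genes of its chromosome (horizontal axis, points spread slightly sideways), with a dashed line where both are equal. Nearly all members lie above the line, NDUFB1 and ATP5S included, while SDHA and NDUFB5 lie below it.

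Subunit genes are short and highly expressed, and both properties moved with the fold change over all genes. Tested genes with a transcript under 1000 bases had a median of 0.28 and those of 2000 bases or more had 0.03, and tested genes with a mean of at least 100 had 0.24. Among genes that are both short and above 100, the 311 that are no members had a median of 0.25, with 50.2% not overlapping and higher in edited cells. The 43 members under 1000 bases had a median of 0.58 and the 32 longer members 0.53, and this difference was not tested. When the trend with transcript length was removed from each library, the member median was 0.30 against -0.01 over all genes, with 68 of 75 positive and 54 not overlapping and higher, against 33.3% of all genes then tested. The part of length in the members' change was not tested beyond this.

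The scaling of the libraries set the size of the change but left its sign for most members. With equal library totals the median of all genes moved to -0.03 and that of the members to 0.45, and 64 members did not overlap and were higher, against 31.7% of all genes. Quantile normalization gave a member median of 0.36 with 60 such members (36.2% of all genes), and cyclic loess normalization 0.29 with 56 (32.6%). In each of these scalings the member median exceeded that of all genes, by 0.48, 0.31 and 0.29, against 0.48 as deposited. Across all alternatives, 68 or more members stayed positive.

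**Figure D5:**
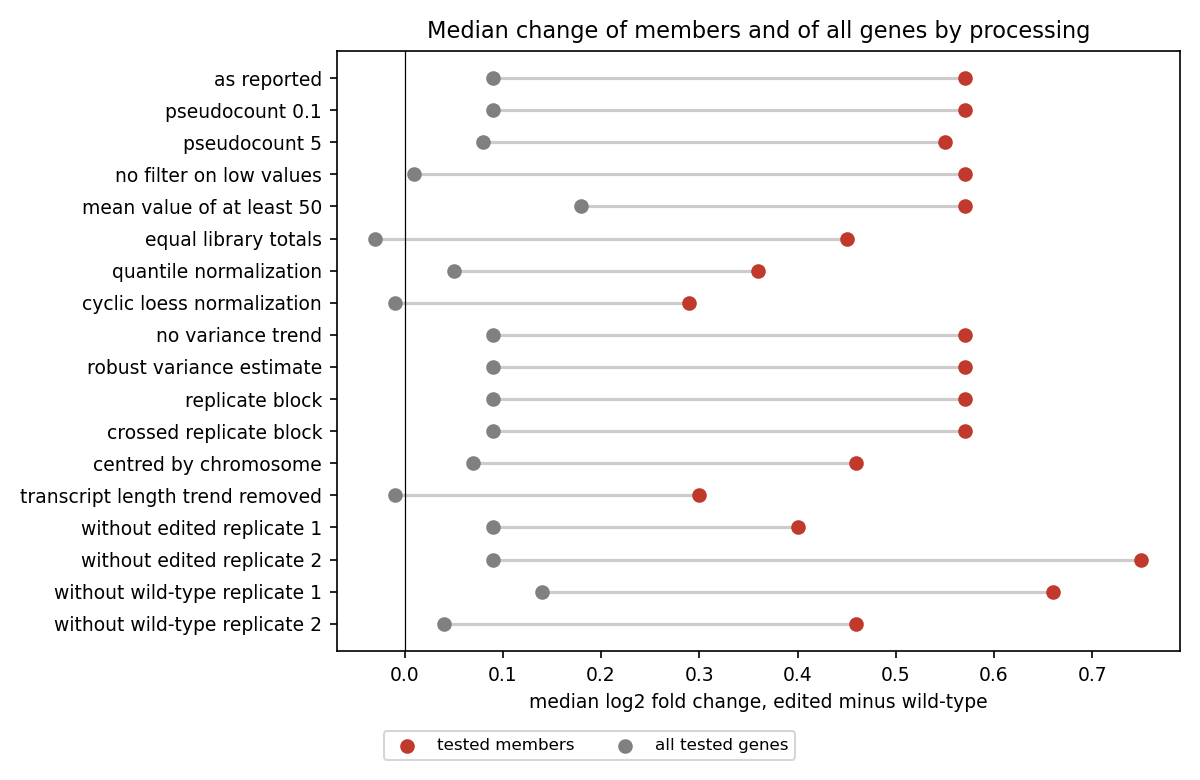
Median log2 fold change, edited minus wild-type, of the tested members (red) and of all tested genes (grey) under each processing alternative (rows). The red point lies to the right of the grey point in every row, with the smallest gap of 0.29 under cyclic loess normalization.

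Markers of cell identity differed between the groups as well. *KRT5*, a basal mammary keratin, was high in all 4 libraries (3514 and 3056 in edited cells, 4590 and 11914 in wild-type cells). It was still lower in both edited libraries, by -1.17 on the log2 scale, without being called (adjusted p = 0.146). Larger decreases were seen in *KRT14* (80.3 and 190 against 585 and 1880, -3.08), *KRT17* (-2.37) and *TP63* (12.6 and 31.2 against 134 and 126, -2.65). Of these, *KRT17* and *TP63* were called lower. Of 11 tested mammary epithelial markers, 8 had negative and 3 positive fold changes. Of the 11, 4 were called lower, where 403 of all 9590 tested genes were, and *KRT8* was called higher. Among the 4 was *CDH1* (3.89 and 1.54 against 150 and 123, log2 fold change -5.28, adjusted p = 0.00328). The summed value of all 11 tested markers was 8563 and 9633 in edited cells and 15241 and 21957 in wild-type cells. Of 10 fibroblast markers, 3 were in the table, with sums of 30.5 and 225 in edited replicates 1 and 2 against 78 and 52.3, and *COL1A1* was called lower (-2.06). *DCN* and *FAP* were highest in edited replicate 2, with 105 and 114. The part of these differences in the members' values was not tested.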

How the data were processed

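RNA-seq libraries of edited and wild-type MCF12A cells (2 each) were grouped by genotype label. The authors deposited 1 table of 16811 genes with a normalized expression signal per library. The submitters' processing notes name HISAT2, Salmon and hg38, with no version, role or normalization. Low values of 1022 genes with a single transcript clustered more at whole multiples of a step after multiplication by transcript length (concentration 4.56 to 5.97, at most 2.11 without it). The share of low values within 0.03 of a whole multiple was small, 7.8% to 18.2% with length and 5.4% to 10.9% without, and in wild-type replicate 1 it was lower with length. The signal was therefore taken as scaled for length, which is not certain. Whole reads were not recovered and count tests were not used. The number of unused sample columns was 0.

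Edited and wild-type cells were compared on log2(value + 1) over genes whose mean reached 10, by the two-sided test of limma 3.58.1 (lmFit, eBayes with trend; R 4.3.3), with Benjamini-Hochberg adjustment over 9590 genes and no replicate block, after the script had been tested on simulated data. A pseudocount of 1 understates changes of low genes. Members under the mean of 10 were tested without the filter. Symbols and synonyms were matched to RefSeq (GRCh38.p14), giving a chromosome for 8958 tested genes, all 79 members and a promoter for 65. Transcript lengths came from GENCODE canonical transcripts on GRCh37. Figures were drawn with matplotlib 3.10.9.

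Named were called members, the 2 highest and 2 lowest of each complex (all 4 of complex II), the 3 with the highest mean, listed tissue isoforms and members that are no subunits. Of the other lists, called genes and the 2 highest and lowest were named, except 1 gene that is not reported here. Other members were named by role after their values were seen. Members and lists were chosen with earlier results of these data known. Alternatives changed the pseudocount, filter, scaling, variance model, block, chromosome centring, transcript length trend and each library in turn.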

Additional observations from a re-analysis of the deposited data

How the results depend on the processing

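With 2 libraries per group, 1 library can decide how many genes are called. The 680 calls over all genes became 419 with a mean of at least 50, 133 with a replicate block and 4 to 1431 when each library was left out (424 without edited replicate 1, 1431 without edited replicate 2, 47 without wild-type replicate 1, 4 without wild-type replicate 2). The member calls (0) became 1 (*ATP5G1*) with a mean of at least 50 and 0 to 10 when each library was left out, the 10 without edited replicate 2. The labels link same-numbered libraries by a number alone, and whether they share a batch is not known. Their deviations had r = -0.138 over 9590 genes. In the tested members, however, the median deviation was higher in replicate 1 than in replicate 2 of both groups (0.75 and 0.40 edited, 0.10 and -0.10 wild-type). The replicate block called 0 members, and 41 had an unadjusted limma p under 0.05 in it, against 36 without it. A crossed block, added after the data were seen, gave 1002 calls and 1 member.

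The median of all members was 0.36 with quantile normalization, 0.29 with cyclic loess and 0.30 with the length trend removed. In the same order it was 0.18, 0.08 and 0.12 for complex II and 0.37, 0.32 and 0.33 for complex IV. For complex I it was 0.31 with cyclic loess and 0.28 with the length trend removed. With quantile and cyclic loess it was 0.39 and 0.30 for complex III and 0.36 and 0.31 for complex V. Leaving out each library gave 0.17 to 0.61 for complex II and 0.39 to 0.87 for complex V. The cause was not tested.

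Of the genes named by the rule above, *COX6C* turned to -0.05 with the length trend removed. *SDHA* turned to -0.08 with quantile normalization, -0.17 with cyclic loess and -0.08 with chromosome centring. Centring turned *NDUFB1* to 0.42 and *ATP5S* to 0.27. Leaving out each library gave -0.35 to 0.12 for *NDUFB1* and -0.34 to 0.11 for *NDUFB5*, positive without edited replicate 2 in both and 0.00 for *NDUFB5* without wild-type replicate 1. None of these had an adjusted p under 0.05 in any alternative. The other 516 values of the genes named by that rule kept their direction. With all 4 libraries, only *ATP5G1* of these genes passed an adjusted p of 0.05, with a mean of at least 50 and with the crossed block. Members named by role were not counted. Among them, *NDUFA5* (-0.10) ranged from -0.34 to 0.14 when each library was left out.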

Other observations

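Of 14 tricarboxylic acid cycle enzymes, 0 were called and 3 had an unadjusted p under 0.05, all higher, with a median log2 fold change of 0.39 and 11 positive, where 18.7% of all tested genes were higher at that p and 56.7% were positive. *FH*, fumarase, read 223 and 152 in edited cells against 101 and 91.4 in wild-type cells (0.93, adjusted p = 0.0765). The lowest were *IDH2* (-0.30) and *OGDH* (-0.19). *IDH2* was lower in both edited libraries.

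Of 15 genes of the outer membrane and the cristae, 0 were called and 8 had an unadjusted p under 0.05, all higher, with a median of 0.60 and 14 positive. Over all tested genes, 18.7% were higher at that p and 56.7% were positive. *TOMM40*, the channel of the import machinery, read 234 and 143 against 81.2 and 51.2 (1.49, adjusted p = 0.0583), and *PHB*, prohibitin, read 433 and 283 against 157 and 139 (1.24, adjusted p = 0.0534). *OPA1*, which shapes the cristae, read 188 and 169 against 199 and 216 (-0.22, adjusted p = 0.48). *HSPD1*, the mitochondrial chaperonin, chosen after its values were seen, read 2482 and 1730 against 1179 and 794 (1.10, adjusted p = 0.08).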
